A study of Macaca fascicularis with 24 samples.

Results

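In 6 of the 21 thoracic aorta samples from cynomolgus macaques (Macaca fascicularis), the transcript of UCP1 was bright. UCP1 is the uncoupling protein of brown fat, and it lets protons back across the inner mitochondrial membrane so that fuel is burned for heat. A sample was called UCP1-high when the brightest UCP1 probe set had a deposited linear intensity of at least 800, and UCP1-low otherwise. The array carries 1 UCP1 probe set, where a probe set is the group of short probes that reads 1 transcript. The 6 UCP1-high samples are 6 of 24 arrays, and the other 18 arrays made up 15 UCP1-low samples, because 3 pairs of near-identical arrays were each averaged. The samples came from 4 groups: old females (mean age 21.2 years, 5 samples), old males (20.0 years, 6 samples), young females (7.2 years, 5 samples) and young males (6.6 years, 5 samples). The labels name no treatment, genotype or disease for any group, give 1 mean age per group, and do not say whether each sample is a separate animal, so p-values measure the spread between samples. Human probes were read with monkey RNA.

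Brown fat cells store fat in many small droplets and hold dense mitochondria. Noradrenaline acts through cyclic AMP to start the breakdown of stored triglyceride, and the released fatty acids are oxidised and also open UCP1. The fat around the thoracic aorta is known to hold brown fat cells in several mammals. Because the samples are bulk tissue, fewer cells of a type and less RNA per cell cannot be told apart.

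The high and low samples were defined by UCP1 on these same arrays, so their differences are given as a description with no test. Values are log2(intensity + 16) after quantile normalisation, and a difference is the mean of the 6 high samples minus the mean of the 15 low samples. A difference of 1 is a doubling on that scale, which understates the change of dim genes. Genes were tested for the study's own age and sex groups, which the rule did not use.

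The arrays were not of 1 quality. Of the 24 arrays, 7 had a median correlation with the others of 0.81 to 0.83, against 0.88 to 0.93 on the rest. They make up 6 divergent samples, of which 2 were UCP1-high (old male 4 and old female 6) and 4 were UCP1-low (old female 2, old male 2, young female 3 and young male 1). The actin control probes at the 3′ end against those at the 5′ end, whose log2 ratio is larger in degraded RNA, gave -0.10 to 0.84 (median 0.37) in the high samples and -0.25 to 1.73 (median -0.01) in the low ones. The smooth muscle markers ACTA2 and TAGLN were bright in all samples, at 13.89 to 15.15 and at 14.0 to 15.6.

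The deposited UCP1 intensity was 10458 in young female 2, 4219 in old male 4, 3787 in old female 5, 2728 in old female 6, 2560 in old male 5 and 1786 in young female 6. The 15 low samples ran from 17.3 to 435.5 with a median of 84.6. The lowest sample inside the limit was thus young female 6, and the nearest outside were old male 2 at 435.5, old female 2 at 238.4 and old male 6 at 184.2. No sample lay between 435.5 and 1786.

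CIDEA, a lipid droplet protein that marks brown fat cells, followed UCP1 closely but not without exception. It read 10.51, 11.10 and 12.46 (lowest, median and highest) in the high samples and 7.32, 8.15 and 11.37 in the low samples, with means of 11.20 ± 0.70 (SD, n = 6) and 8.74 ± 1.37 (SD, n = 15) and a difference of 2.46. Young male 1 at 11.37, old male 6 at 10.87 and old male 2 at 10.53 were the 3 low samples above the lowest high sample. Of these, young male 1 and old male 2, are divergent arrays.

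FABP4, the fatty acid carrier of all fat cells and of capillary endothelium, separated the samples less well. It read 12.68, 13.16 and 14.53 in the high samples and 9.35, 11.58 and 14.72 in the low samples, a difference of 1.41. In 5 low samples FABP4 lay above the lowest high sample, led by young male 1 at 14.72, old female 2 at 14.07 and old male 2 at 13.84. Bright FABP4 therefore occurred both with bright and with dim UCP1, whereas no UCP1-high sample had FABP4 below 12.68.

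**Figure D1:**
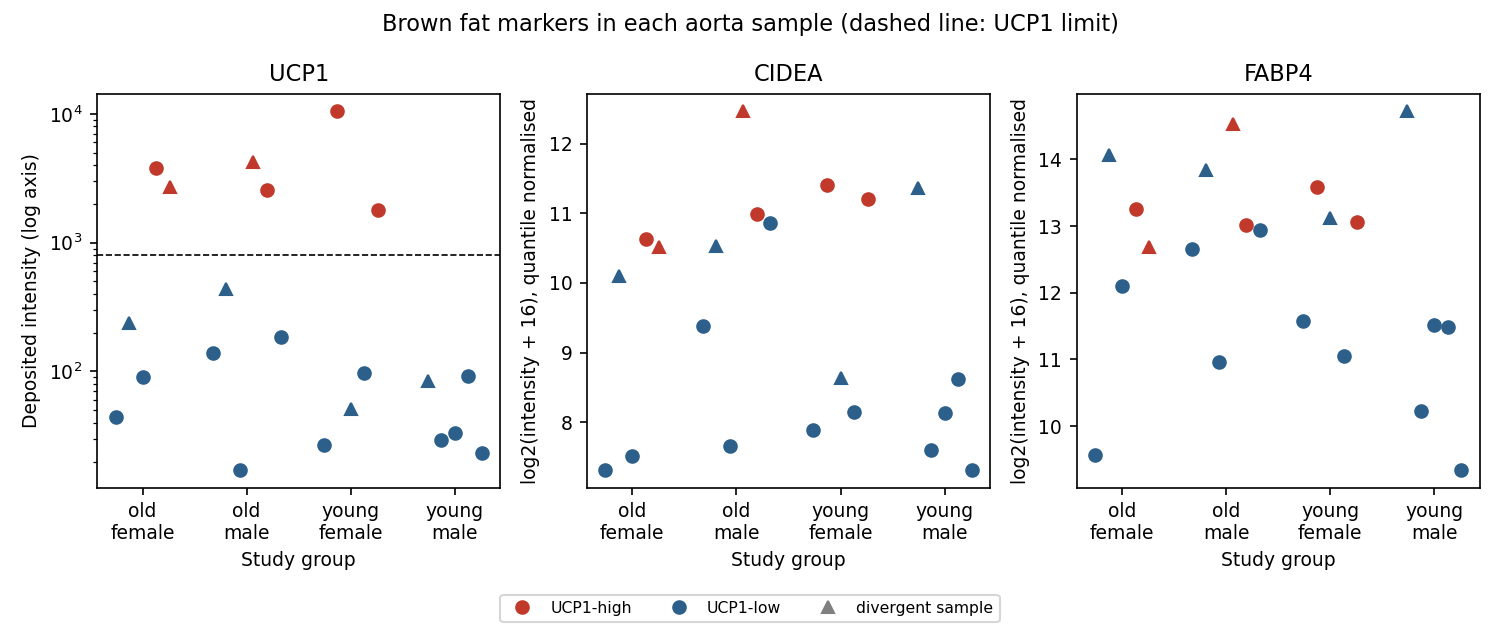
UCP1 as deposited intensity on a log axis, and CIDEA and FABP4 as normalised log2 values, for each of the 21 samples by study group. Red points are UCP1-high, blue points UCP1-low, triangles are divergent samples, and the dashed line is the UCP1 limit of 800; the 6 red points run from 1786 to 10458 for UCP1, while several blue triangles are as high as the red points for FABP4.

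UCP1-high samples were found at both ages and in both sexes. They were 2 of 5 old females, 2 of 6 old males, 2 of 5 young females and 0 of 5 young males. By age, 4 of 11 old and 2 of 10 young samples were high (Fisher's exact test, two-sided, p = 0.635, adjusted over 2 tests 0.635). By sex, 4 of 10 female and 2 of 11 male samples were high (Fisher's exact test, two-sided, p = 0.361, adjusted 0.635). With these numbers of samples, neither age nor sex differed detectably in how often UCP1 was bright.

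Among 6942 genes other than UCP1 that passed the filter on low signal, each read by its brightest probe set, 1 gene was at least doubled with no overlap between high and low samples (0.0144% of genes). That gene was GOT1, the cytosolic aspartate aminotransferase of the malate-aspartate shuttle, which carries reducing power from the cytosol into mitochondria. Over probe sets the share was 0.00900%, and 0 of 11107 probe sets were lower by as much with no overlap. GOT1 read 9.96, 10.45 and 11.76 in the high samples and 7.75, 9.04 and 9.65 in the low samples, a difference of 1.63. Every high sample lay above every low sample, and the closest low sample was young male 1.

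A wider rule was set after the data were seen: a gene followed UCP1 when the high sample exceeded the low sample in at least 90% of the 90 high-low pairs and the difference was at least 1. By this rule 26 genes were higher (0.375% of genes) and 3 were lower (0.0432%). By size alone, 74 genes (1.07%) were at least doubled in mean and 26 (0.375%) were lower in mean by 1 or more. The rule picks genes on these samples, so the count describes the list and tests nothing. With a mean per study group as extra terms, all 26 still followed, among 38 in all. Those pairs were counted on values with the fitted group terms taken out. This narrows the spread and can make 90% of pairs easier to reach.

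In order of the difference the 26 genes began with CHI3L1 (2.56), a secreted chitinase-like glycoprotein, CIDEA (2.46), PRKAR2B (2.26), CKMT2 (1.95), PPIF (1.81), ACADVL (1.75), INSIG1 (1.73), ACAA2 (1.73), GOT1 (1.63) and COX5A (1.60). The remainder, from 1.59 down to 1.06, were HLA-DQB1, HLA-DRB6, APRT, ECHDC1, HLA-DRA, HLA-DMA, ETFDH, CD74, NSDHL, ACSL1, PSMB10, MECR, ECH1, ACAT1, ETFA and AIFM1. CKMT2 and MECR passed the filter, a mean of 7.60, only through the high samples (means of the low samples 7.47 and 7.44), so a difference was built into their passing; 0 to 2 genes of each list described here did the same. CHI3L1 is led by 1 sample, old male 4 at 12.64, while the other 5 high samples read 9.70 to 10.48. APRT, which salvages adenine, exceeded the low samples in 89 of 90 pairs, at 9.38 to 11.64 against 7.86 to 9.70.

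The 3 lower genes were DIXDC1, an actin-binding protein of the Wnt pathway (difference -1.61), ZMIZ2, a transcriptional coregulator (-1.18), and VWA1, a matrix protein (-1.11). DIXDC1 read 5.92, 8.17 and 9.12 in the high samples and 8.38, 9.39 and 10.53 in the low ones, with old female 6 and old male 4 the lowest. Other ZMIZ2 probe sets had differences of the opposite sign, and VWA1 passed the filter only through the low samples (mean of the high samples 7.11). Without the divergent samples none of the 3 met the rule, with differences of -0.82 for DIXDC1, -0.88 for ZMIZ2 and -0.86 for VWA1.

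**Figure D2:**
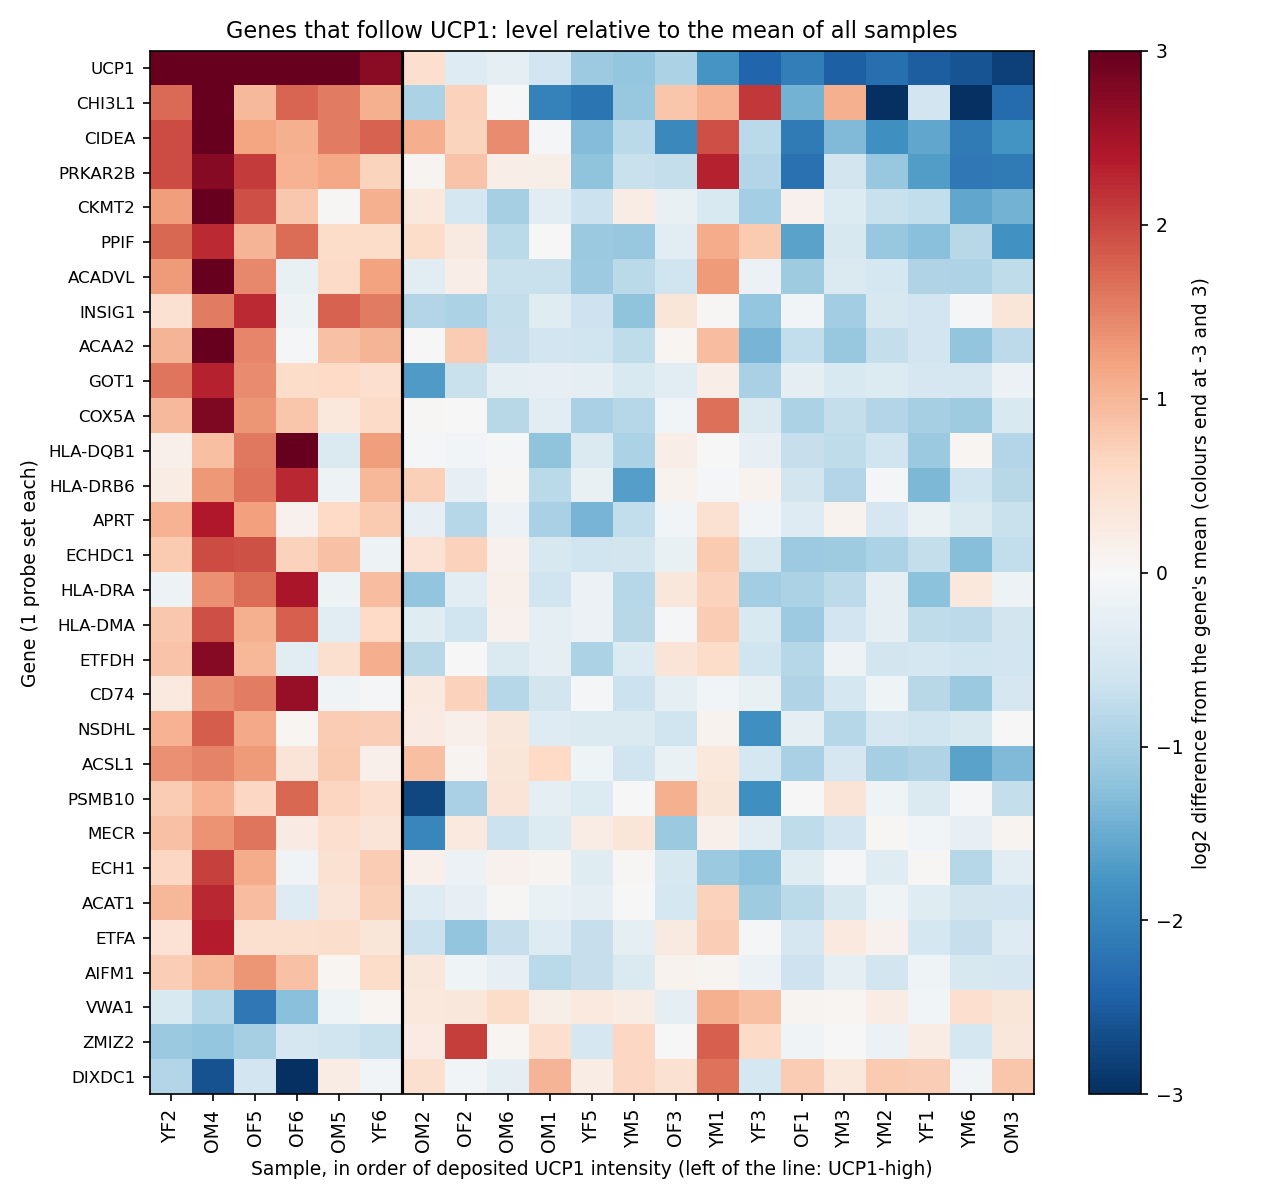
Heat map of UCP1, the 26 genes that followed it upward and the 3 that followed it downward, as log2 difference from each gene's mean over the 21 samples, with samples (O old, Y young, F female, M male, and the replicate number) in order of deposited UCP1 intensity. The colours end at -3 and 3; columns left of the line are the 6 UCP1-high samples, old male 4 (OM4) is red in nearly every upper row, and young male 1 (YM1) is the reddest of the UCP1-low columns.

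The transcription factors that set up brown fat were often too dim to pass the filter, and 2 of the dim ones stood out. RXRG, a retinoid X receptor that pairs with PPAR factors, read 8.30, 8.86 and 9.64 in the high samples and 4.87, 6.28 and 8.39 in the low samples, a difference of 2.72, higher in 89 of 90 pairs. PPARGC1A, the coactivator that drives mitochondrial biogenesis and UCP1 in cold, read 7.55, 8.95 and 10.37 against 5.30, 6.52 and 7.91, a difference of 2.29, higher in 88 of 90 pairs. For both genes young male 1 was the only low sample above the lowest high sample. Both missed the filter, a mean of 7.60 over all arrays, so they are counted in none of the shares above.

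PPARG, the master factor of fat cell formation, read 8.32 to 11.56 against 5.17 to 11.12, a difference of 1.70 with 7 low samples above the lowest high sample. EBF2, which marks brown fat precursors, differed by 0.93 (8.73 to 10.69 against 7.81 to 9.02), and PPARA by 0.66. PRDM16, a determinant of brown fat identity, and ZIC1, a marker of classical brown fat, were dim in every sample, with differences of 0.20 and -0.01. Of 32 regulators listed, 30 were on the array and 18 passed the filter, 11 of them with a higher and 7 with a lower mean in the high samples (median 0.08, against -0.02 over all genes). The median was -0.05 without old male 4, so the regulators as a list were not higher throughout; THRB (-0.42), a thyroid hormone receptor, and NTRK3 (-0.40) were the lowest members.

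The other brown fat genes were mixed. Besides UCP1, 31 genes were listed, 18 were on the array and 13 passed the filter, of which 11 had a higher and 2 a lower mean, with a median difference of 0.38. CIDEA and CKMT2 are among the 26, CKMT2 having passed only through the high samples. CKMT2, the mitochondrial creatine kinase, read 8.06, 9.19 and 11.28 in the high samples and 6.46, 7.49 and 8.33 in the low ones, with 5 of 6 high samples above every low sample. PDK4, which turns off glucose oxidation, differed by 1.01, and 5 of 6 high samples (9.32 to 9.76) lay above the highest low sample (9.06), the exception being old female 6 at 7.62.

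DIO2, which activates thyroid hormone in brown fat, differed by 0.83 on the probe set that passed, and by -0.15 to 0.83 over its 4 probe sets. The acyl-CoA thioesterase ACOT11 differed by 0.73, the potassium channel KCNK3 by 0.47, the nucleoside carrier SLC29A1 by 0.38, the carnitine carrier SLC25A20 by 0.36 and MTUS1 by 0.24. COX7A1, a respiratory chain subunit of muscle and brown fat, differed by 0.09 and ACSF2 by 0.01, while LETMD1 (-0.23) and HSPB7 (-0.38) had lower means. Probe sets of MTUS1, SLC29A1 and ACOT11 disagreed in sign. Old female 6 read low for LETMD1, COX7A1, KCNK3 and PDK4, and without it the list's median was 0.57.

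Of the noradrenaline pathway genes that passed the filter, only PRKAR2B followed UCP1. It is the regulatory subunit of protein kinase A that fat cells use. PRKAR2B read 11.22, 12.11 and 13.26 in the high samples and 8.31, 9.83 and 12.85 in the low samples, a difference of 2.26, with young male 1 the highest low sample. ADRA2A, an inhibitory adrenergic receptor, differed by 0.89, with a higher value in 79 of 90 pairs. The cyclic AMP phosphodiesterase PDE3B differed by 0.54. ADRB3, the beta receptor of fat, was below the filter at 5.2 to 7.7 against 4.7 to 5.9. Of the 15 genes of this list that passed, 12 had a higher mean (median 0.11), and CREB1 was the lowest at -0.32.

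Genes of fat cells in general were higher on average but overlapped widely. PCK1, which makes glycerol for triglyceride in fat, differed by 2.62 (9.56, 9.79 and 11.60 against 4.81, 7.77 and 10.30), and GPD1, with the same role and below the filter, by 2.49. CD36, a fatty acid receptor, differed by 1.32, and the retinol carrier RBP4 by 1.22, with probe sets of opposite sign. Adiponectin (ADIPOQ), leptin (LEP) and resistin (RETN) were dim in all samples, with differences of -0.02, -0.15 and -0.14. PLIN1 and SLC2A4, also below the filter, differed by 1.26 and 1.08, with higher values in 66 and 68 of 90 pairs. Of 27 listed genes, 18 were on the array and 11 passed the filter, 8 with a higher and 3 with a lower mean (median 0.62, and 0.35 without old male 4). ADIRF (-0.22) was the lowest.

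For storage and release of triglyceride, lipoprotein lipase (LPL) differed by 1.92 and hormone-sensitive lipase (LIPE) by 1.71. LIPE read 8.94, 10.31 and 11.38 in the high samples and 6.10, 8.28 and 11.38 in the low ones, and the UCP1-low samples old male 2 (11.38) and young male 1 (11.08) were as high as the highest high samples. ACSL1, which activates fatty acids, followed UCP1 with a difference of 1.27 (11.97 to 13.32 against 10.22 to 12.72), and PLIN2 (1.09) stayed below the filter. Of 16 genes that passed, 14 had a higher mean (median 0.60), with VLDLR at -0.51. In fatty acid synthesis, where 13 of 14 had a higher mean (median 0.49), SCD, the stearoyl-CoA desaturase, differed by 2.53, ACACB by 1.35, FASN by 1.01 and ELOVL6 by 0.87. SLC25A1 alone had a lower mean (-0.05), and probe sets of FASN disagreed in sign.

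Fatty acid oxidation had a median difference of 0.91 over the 21 of 26 genes that passed; 20 had a higher mean, 8 were at least doubled and 5 followed UCP1. ACADVL, which starts the oxidation of long-chain fatty acids, read 10.59, 12.04 and 14.02 in the high samples and 9.70, 10.12 and 12.08 in the low samples (means 12.05 ± 1.14, n = 6, and 10.30 ± 0.60, n = 15). ACAA2, the thiolase that ends each round, read 10.42, 11.50 and 13.54 against 9.09, 9.78 and 11.41. ETFDH, which passes electrons from this pathway to ubiquinone, read 8.23, 9.47 and 11.27 against 7.59, 8.01 and 9.08.

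In all 3 genes old male 4 was the highest sample and old female 6 the lowest of the high samples. ETFA, a subunit of the electron carrier that feeds ETFDH, was tight in 5 high samples (10.85 to 11.02) and 12.85 in old male 4. ACAT1 followed UCP1 as well (1.14). ACADSB, for branched short chains, was the only gene of this list with a lower mean (-0.26). The list's median was 0.66 without old male 4 and 0.77 without the divergent samples.

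The citric acid cycle and pyruvate oxidation were higher nearly throughout: 22 of the 23 genes that passed had a higher mean (median 0.65). MPC2, a subunit of the mitochondrial pyruvate carrier, differed by 1.23, IDH2 by 0.98, and SDHA, the catalytic subunit of succinate dehydrogenase, by 0.94 (10.16, 10.63 and 12.18 against 9.55, 9.74 and 10.87). The exception was PDP1, the phosphatase that activates pyruvate dehydrogenase, with a difference of -0.77 and a higher value in the high sample in 11 of 90 pairs.

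The respiratory chain was higher by less. Of complex I subunits, 24 of the 26 that passed had a higher mean (median 0.43), led by NDUFS1 at 0.98 and ending with NDUFC1 at -0.13. Of complexes III and IV with cytochrome c, 20 of 21 had a higher mean (median 0.56), with COX5A at 1.60, COX4I1 at 0.87 and UQCRC1 at 0.82, and COX6C alone had a lower mean (-0.07). COX5A read 10.95, 11.55 and 13.45 in the high samples and 9.57, 9.94 and 12.29 in the low ones, with young male 1 the only low sample above the lowest high sample. COX4I1 had probe sets of opposite sign.

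ATP synthase, which UCP1 bypasses, had 11 of 15 subunits with a higher mean (median 0.35), from ATP5F1B, its catalytic beta subunit (0.91; 12.66, 13.15 and 14.43 against 12.04, 12.32 and 13.14), to ATP5PF (-0.39). These medians rest in part on 1 sample: without old male 4 they were 0.19 for complex I, 0.33 for complexes III and IV and 0.15 for ATP synthase. Among all genes that passed the filter, 47.0% had a higher and 53.0% a lower mean in the high samples.

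UCP1 was not matched by the other uncoupling proteins. UCP2, found in many cell types including macrophages, differed by 0.92 and read 9.64, 10.53 and 11.16 in the high samples and 8.84, 9.46 and 10.60 in the low ones. UCP3, the muscle form, was below the filter and differed by 0.28, and by -0.19 without the divergent samples. SLC25A5, an ADP/ATP carrier, differed by 0.84. Of the 16 mitochondrial carriers that passed, UCP2 and SLC25A5 among them, 13 had a higher mean, with a median of 0.12.

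Other fuel pathways had small median differences over the genes that passed the filter. Glycolysis, listed together with the glycerol phosphate shuttle, had a median of 0.11 (11 of 18 with a higher mean). ALDOC was at 1.37, LDHB at 0.94 and PFKFB3 at -0.60. The shuttle enzymes GPD1 (2.49) and GPD2 missed the filter, so that median leaves them out. Breakdown of branched-chain amino acids had a median of 0.18 (12 of 17), with HSD17B10 at 0.75 and BCAT2 at -0.28. GPD2, the mitochondrial partner of GPD1 in the glycerol phosphate shuttle, was below the filter and read 7.5 to 9.6 against 5.4 to 7.8, with a difference of 1.60 and a higher value in 89 of 90 pairs.

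A set of sterol and mitochondrial genes was listed after the 26 were seen, so its counts support nothing. INSIG1, which holds back sterol synthesis, read 9.83, 11.55 and 12.22 in the high samples and 8.79, 9.43 and 10.35 in the low ones. NSDHL, a sterol synthesis enzyme, read 8.31, 9.16 and 10.07 against 6.42, 7.84 and 8.60, but the 16 cholesterol genes had a median of 0.22, and SREBF2, their main activator, was at -0.25. Among 31 genes of mitochondrial import, assembly and shuttles the median was 0.36. PPIF, the cyclophilin of the permeability pore, read 9.28, 10.08 and 10.97 against 6.92, 7.92 and 9.84, and AIFM1, needed to assemble complex I, 8.58, 9.35 and 9.85 against 7.72, 8.24 and 8.86.

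The genes of MHC class II, which present antigen on macrophages, dendritic cells and B cells, were also higher. This list was added after the data were seen; all 10 of its genes that passed had a higher mean (median 1.28) and 5 followed UCP1. Without the divergent samples HLA-DRB6 alone of these 5 still followed, and HLA-DRA, HLA-DMA, HLA-DQB1 and CD74 did not. HLA-DRA read 11.87, 13.17 and 14.47 in the high samples and 10.80, 11.68 and 12.72 in the low samples, and CD74, the invariant chain, 10.62, 11.58 and 13.33 against 9.62, 10.23 and 11.42. The order of the high samples differed from that of the fat genes: old female 6 was highest (14.47 for HLA-DRA) and old male 5 was lowest (11.87). MHC genes share sequence between copies, and human probes may not tell the monkey copies apart.

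The differences of macrophage and lymphocyte markers were smaller or reversed without old female 6. Of 13 macrophage genes that passed, 11 had a higher mean (median 0.39, and 0.18 without old female 6), with LAPTM5 at 1.04, LYZ at 1.02 and CD14, the endotoxin coreceptor, at -0.53. The macrophage score, the mean deviation of the list's genes from their averages over all samples, was -0.50 to 1.45 in the high and -0.80 to 0.98 in the low samples. Of 7 lymphocyte genes that passed, 5 had a higher mean (median 0.30), led by IGKC at 1.37, higher in 56 of 90 pairs. IGHG1 (-0.59) and CCL21 (-0.49) had lower means. The lymphocyte score was 2.02 in old female 6 and -0.68 to 0.13 in the other high samples, and the list's median was -0.12 without old female 6. The part of these cells in the MHC class II values was not tested.

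Genes of the vessel wall had lower means in the high samples, by less when the divergent samples were left out. All 21 smooth muscle genes had a lower mean (median -0.29), led by DES at -0.90 and SMTN at -0.65, and 28 of 32 collagen and elastic fibre genes did (median -0.38), led by COL18A1 at -1.06 with FBLN2 at 0.51 on the other side. Without old female 6 the smooth muscle median was -0.03 and the collagen median -0.14. Without all divergent samples they were -0.08 and -0.01. The smooth muscle score was -1.36 in old female 6 and -0.29 to 0.20 in the other high samples, against -0.99 to 0.56 in the low samples. DES and ACTA2 had probe sets of opposite sign. Of 15 proteoglycan genes 12 had a lower mean (median -0.30), with COMP at -0.99 and SDC1 at 0.70, and the fibroblast genes lay near all genes (median -0.07), with C3 at -0.77 and SERPINF1 at 0.48.

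Endothelial genes had higher means in 11 of the 14 that passed (median 0.46, and 0.20 without old male 4), led by TIE1 at 0.76, CDH5 at 0.59 and CLDN5 at 0.56, with LYVE1 at -0.21. The genes of fat-handling capillaries had a median of 0.77 over 6 genes, of which FABP4 and CD36 are also fat cell genes, and AQP1 was at -0.09. The capillary score was 1.63 in old male 4 and -0.13 to 0.42 in the other high samples. The part of capillaries in the fat values was not tested.

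Striated muscle, which shares CKMT2, PYGM and COX7A1 with brown fat, was checked through 27 genes on the array. Only 9 passed the filter, 3 with a higher and 6 with a lower mean (median -0.15, and 0.04 without old female 6), with TNNC1 at -0.85 and TNNT3 at 0.39. CKM read 4.6 to 6.0 in the high and 4.8 to 7.6 in the low samples, and MYH7 5.3 to 7.4 and 6.2 to 9.4. Both stayed below the filter level of 7.60 in every high sample. Myoglobin (MB), which missed the filter, went the other way. It differed by 0.48, with a higher value in 61 of 90 pairs. Other muscle genes passed the filter. TNNC2, TNNT3 and ACTA1 had means of 8.38, 7.95 and 8.07 in the high samples and 8.29, 7.56 and 8.38 in the low ones. PYGM differed by 1.64, with a higher value in 78 of 90 pairs. The part of striated muscle in these values was not tested. The list's score was -0.51 to 0.15 in the high and -0.35 to 0.55 in the low samples.

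Red cell genes were higher on average and varied widely. The haemoglobin gene HBB read 9.99, 12.97 and 15.21 in the high samples and 9.12, 10.47 and 15.03 in the low ones, a difference of 1.73. All 3 red cell genes that passed had a higher mean (median 0.60, and 0.28 without old female 6), with CA1 at 0.60 and HBD at 0.35, and the red cell score was -0.57 to 1.99 against -1.52 to 1.43. The part of blood in the other values was not tested. Of 4 nerve sheath genes that passed, 3 had a lower mean (median -0.18), with PRX at 0.54. Of 4 mesothelial genes, 3 had a lower mean (median -0.56), KRT18 the lowest at -0.76 and CALB2 at 0.20.

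**Figure D3:**
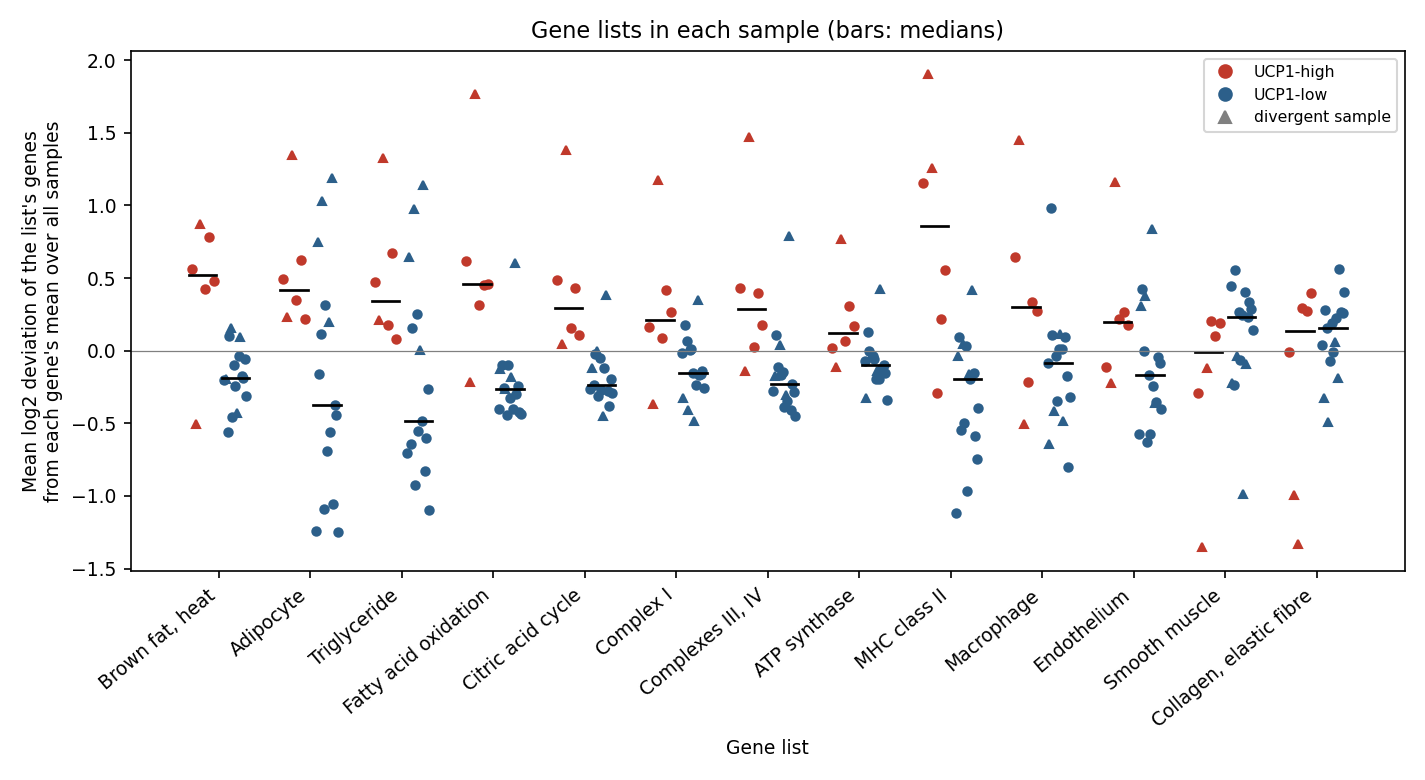
Score of 13 gene lists in each sample, as the mean log2 deviation of the list's genes from each gene's mean over all samples; red points are the 6 UCP1-high samples, blue points the 15 UCP1-low samples, triangles are divergent samples and bars are medians. Old male 4 is the highest red triangle in the fat and mitochondrial lists (1.77 for fatty acid oxidation), and old female 6 is the lowest red triangle there (-0.22) and the highest for MHC class II (1.90).

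The 6 UCP1-high samples were not alike. Old male 4 had the highest score for fatty acid oxidation (1.77), the citric acid cycle (1.38), complexes III and IV (1.47) and the adipocyte genes (1.35), although its UCP1 was below that of young female 2. Old female 6 had scores of -0.22 for fatty acid oxidation and -0.51 for the brown fat genes, within the range of the UCP1-low samples. Both are divergent arrays. The 4 other high samples were closer together, at 0.31 to 0.61 for fatty acid oxidation and 0.43 to 0.78 for the brown fat genes.

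With the 6 divergent samples left out, 4 UCP1-high and 11 UCP1-low samples remained, a number with which no overlap is easier to reach. Then 27 probe sets were at least doubled with no overlap and 45 genes followed by the 90% rule, 19 of them among the 26, so 7 of the 26 no longer met the rule. Some differences were smaller, as for GOT1 (1.39), CKMT2 (1.68), ETFA (0.77) and the fatty acid oxidation list (median 0.77), and others larger, as for CIDEA (2.84) and PRKAR2B (2.57). The genes without overlap then included FABP4, PPARG, PCK1, ACADVL, ACAA2, ETFDH, DECR1, HADHB, COX5A, CYC1, PPIF, PRKAR2B and PDK4. FABP4 read 13.02 to 13.59 in the 4 high and 9.35 to 12.94 in the 11 low samples, a difference of 2.01. PPARG read 9.57 to 9.63 against 5.17 to 9.49, and PPARGC1A, below the filter, 7.55 to 9.29 against 5.30 to 7.12. The MHC class II median was 0.89 among these samples, and HLA-DRA overlapped at 11.87 to 13.69 against 10.80 to 12.38.

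Bright fat cell genes also occurred with dim UCP1. Young male 1, old male 2 and old female 2 had adipocyte scores of 1.19, 1.03 and 0.75, each above 5 of the 6 high samples, whose scores were 0.22 to 1.35. Their UCP1 values were 6.28, 8.56 and 7.67, against 10.75 to 13.28 in the high samples. Their GOT1 values were 9.65, 7.75 and 8.79, and their PPARGC1A values 7.91, 7.16 and 6.96; both genes were picked for their difference between high and low samples, so these values are a description only. Young male 1 lay above the lowest high sample for CIDEA, PRKAR2B, COX5A, RXRG and PPARGC1A, among others, old male 2 did so for CIDEA and old female 2 for PRKAR2B.

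Young male 1 came closest to the UCP1-high samples in the mitochondrial genes, with a fatty acid oxidation score of 0.60, against -0.27 in old male 2 and -0.12 in old female 2. Old male 6, which is not a divergent array, had CIDEA at 10.87, FABP4 at 12.94 and an adipocyte score of 0.32 with PPARGC1A at 5.75. All 3 samples with the brightest fat cell genes among the low ones are divergent arrays, and the part of array quality in their values was not tested.

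**Figure D4:**
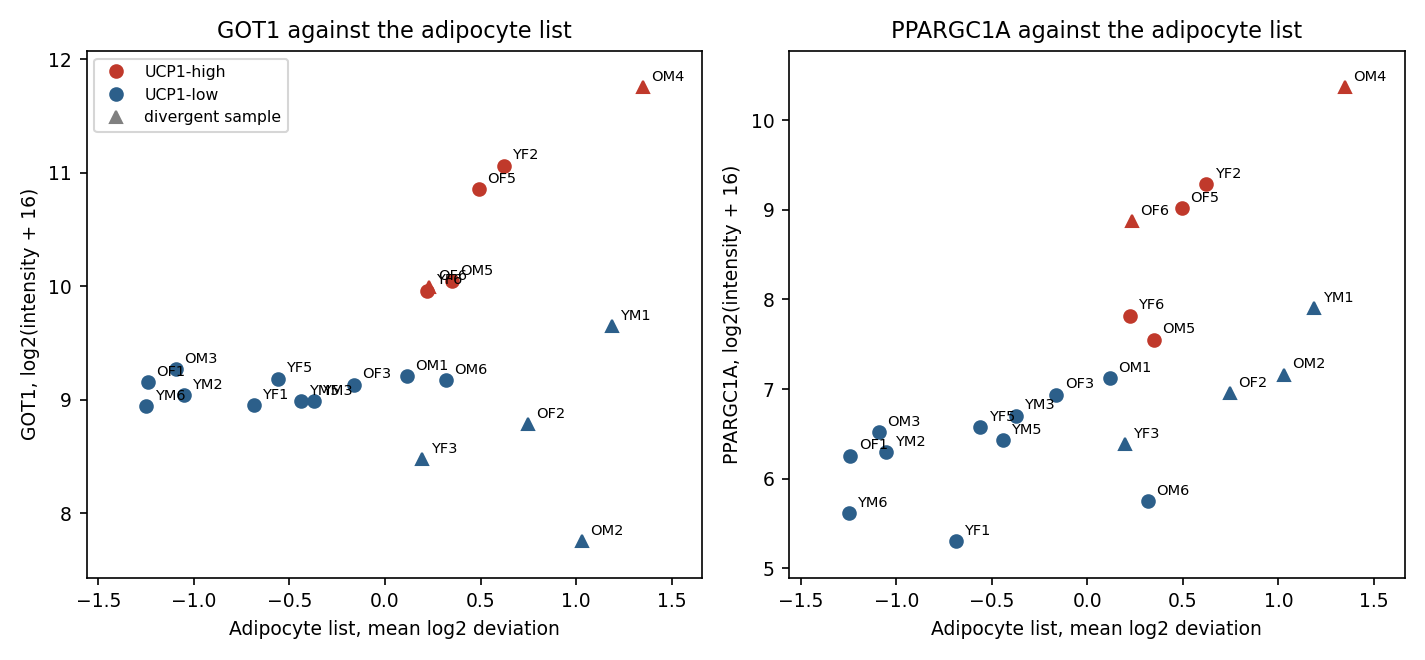
GOT1 and PPARGC1A, each as normalised log2(intensity + 16), against the adipocyte score in each of the 21 samples, labelled by group (O old, Y young, F female, M male) and replicate number. Red points are UCP1-high, blue points UCP1-low and triangles divergent samples, and both genes were picked for their height in the red points; young male 1 (YM1), old male 2 (OM2) and old female 2 (OF2) combine scores of 1.19, 1.03 and 0.75 with GOT1 of 9.65, 7.75 and 8.79.

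The age and sex groups, which the rule did not use, were compared with limma over 11108 probe sets, with p-values adjusted by the Benjamini-Hochberg method. In males, 2 probe sets, both of the proteoglycan gene ACAN, passed 0.05 (0.0180%). In females, over both sexes and for the difference of the age effects between the sexes, 0 passed, with 315, 486 and 216 at an unadjusted limma p under 0.05 against 555.4 expected by chance. Between the sexes 3 passed (0.0270%), RPS4Y1 of the Y chromosome and 2 probe sets of XIST. No gene that followed UCP1, and none of the genes of 8 fat and mitochondrial lists, passed in any of the 5 contrasts. With array weights 25 probe sets passed for age in males, among them 2 genes of these lists, HADH of fatty acid oxidation and MGLL, a lipase of triglyceride breakdown.

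UCP1 was higher on average in old than in young males by 2.75 ± 1.39 (SE, limma adjusted p = 0.99991, 6 old against 5 young samples), where 0 of the 5 young males were UCP1-high. CIDEA differed by 1.71 ± 0.90 and FABP4 by 1.53 ± 0.84 in the same comparison, with the same adjusted p. In females UCP1 differed by 0.40 ± 1.45, CIDEA by -0.24 ± 0.94 and FABP4 by -0.15 ± 0.88 (limma adjusted p = 0.99963 for each, 5 against 5 samples). The difference of the age effects of UCP1 between the sexes was 2.34 ± 2.01 (limma adjusted p = 0.99994). Between the sexes UCP1 differed by -1.28 ± 1.004 (SE, male minus female, limma adjusted p = 0.99961). An age or sex difference of UCP1 was not detectable with this number of samples.

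Of the fat and mitochondrial lists in old against young males, triglyceride genes had 15 of 16 higher means (median 0.51) and fatty acid oxidation 18 of 21 (0.36), while in females the counts were 10 of 16 (0.09) and 9 of 21 (-0.11). Over all 6943 genes the median was -0.0129 in males and -0.0234 in females, and the list counts were not tested. Genes of a list were read on the same samples and can move together, so these are not counts of independent genes. The adipocyte genes were 9 of 11 (0.76) in males and 7 of 11 (0.05) in females. None of these list genes passed the limma threshold in either sex, except HADH and MGLL in males when array weights were used.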

How the data were processed

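The authors deposited 1 table of linear intensities for 24 single-colour arrays of a human design, with 22277 probe sets; per the labels' protocols, total RNA was reverse-transcribed and labelled with biotin. Probe summarisation and scaling were not given in the sources used here. The 62 control probe sets were left out, log2(intensity + 16) was taken, and arrays were quantile normalised, since their medians spanned 0.81, in R 4.3.3. Old females 1 and 4, young females 3 and 4 and young males 3 and 4 were near-identical (SD of their difference at most 0.38, against at least 0.43 in other pairs) and were averaged, counting as 1 sample each. Probe sets with a mean at or above the median of means (7.60) were kept, 11108 in all, and each gene was read by its brightest probe set. Of all probe sets, 19064 had 1 gene symbol, 1043 several and 2108 none in the platform annotation.

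UCP1-high and UCP1-low samples were described without a test. Fisher's exact test and limma 3.58.1 (group means, empirical Bayes with trend, Benjamini-Hochberg) were run on the labels' groups. The limit of 0.85 for a divergent array, the 90% rule and 3 of the 29 gene lists were set after the data were seen. The members and all lists were chosen with earlier results of these data known. Named genes were those called, the brown fat genes that passed, up to 4 extremes of each other list and its members of opposite sign, plus FABP4, CIDEA, UCP2 and UCP3; RXRG, PPARGC1A, GPD1, GPD2, EBF2 and other genes named beyond this were chosen after their values were seen. The scripts were tested on simulated data. Alternatives for the UCP1 comparison were other pseudocounts, scalings, filters and UCP1 limits, all 24 arrays, and group terms. The divergent samples, or each UCP1-high sample in turn, were also left out. Limma was rerun with the same changes except UCP1 limits and group terms. It was also rerun with a replicate block, with array weights, and leaving out each sample of either status in turn. The number of arrays limits the precision.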

Additional observations from a re-analysis of the deposited data

Results flagged for a closer look

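Among 84 groups of gene and list values examined for 1 sample far from the others, 12 were marked. Most groups held the 6 UCP1-high samples, and the rest were UCP1, CIDEA and FABP4 within each study group. The UCP1-low samples were not examined as a group. That all 12 lie in the UCP1-high samples therefore says nothing about high against low. The groups share samples and genes, so a chance rate of about 1 in 20 does not apply to their count. In each of the 12 the sample is old male 4 or old female 6, both divergent arrays. Old male 4 stood above the rest for CHI3L1 (12.64, next 10.48) and ETFA (12.85, next 11.02), and in the scores of the adipocyte genes (1.35, next 0.62), the citric acid cycle (1.38, next 0.49), complexes III and IV (1.47, next 0.43), the endothelium (1.16, next 0.27) and fat-handling capillaries (1.63, next 0.42). Old female 6 stood below the rest for LETMD1 (6.88, next 8.23) and PDK4 (7.62, next 9.32), and in the scores of the brown fat genes (-0.51, next 0.43) and smooth muscle (-1.36, next -0.29), and above the rest for lymphocytes (2.02, next 0.13). Array quality, RNA quality and cell make-up were not told apart for these samples.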

How the results depend on the processing

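Of 2160 recomputed differences of 135 named genes, all stayed within 1 pooled SD between samples. None that was at least 1 in size changed sign. Dropping the filter or raising the UCP1 limit to 1600 could not change a difference. The SD is wide, so sizeable moves fell within it. With a UCP1 limit of 400, PSMB10 went from 1.25 to 0.56 and NDUFA13 from 0.70 to -0.07. Counts moved more. Their causes were not tested beyond the fewer or more samples and genes each setting holds. Here, leaving out 1 sample means 1 of the 6 UCP1-high samples, and no UCP1-low sample was left out alone. Against 1 probe set higher with no overlap, there were 2 with arrays centred on the median, 2 with no filter, 0 with a UCP1 limit of 400, 2 with group terms, 27 without the divergent samples and 1 to 10 leaving out 1 high sample (10 without old female 6); against 0 lower, there were 1, 1 and 2 with median centring, a limit of 400 and no divergent samples, and 0 to 1 leaving out 1 sample. Against 26 genes by the 90% rule, there were 53 with no filter, 17 with a limit of 400 (14 shared), 45 without the divergent samples and 20 to 43 leaving out 1 sample; 42 were found without old female 6, 43 without old male 5 and 20 without old male 4. Against 3 lower, there were 6 with a pseudocount of 1, 9 with no filter, 8 without the divergent samples and 3 to 14 leaving out 1 sample. List medians near 0 changed sign: the regulators (-0.0036 with median centring, -0.0504 to 0.11 leaving out 1 sample), fibroblast genes (0.0038 without the divergent samples), striated muscle (0.0226 with no filter and 0.0244 without the divergent samples, -0.27 to 0.0419 leaving out 1), lymphocytes (-0.0166 without the divergent samples, -0.12 to 0.47 leaving out 1) and nerve sheath (0.0833 with a limit of 400, -0.29 to 0.0019 leaving out 1).

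In limma, the 2 calls for age in males became 0 with a pseudocount of 64, with median centring or with no filter, 25 with array weights (HADH and MGLL among them) and 0 to 2 leaving out 1 sample. Over both sexes 0 became 1 without the divergent samples and 1 with the replicate block. The 3 calls for sex became 6 with no filter, 5 without the divergent samples, 5 with array weights and 3 to 5 leaving out 1 sample. The age effect of UCP1 in females was -0.78 without the divergent samples and -0.0341 with array weights; leaving out 1 sample it ran from -0.38 to 1.61, that of CIDEA from -0.63 to 0.25 and that of FABP4 from -0.58 to 0.55. Same-numbered samples of different groups correlated at -0.42 to 0.51 (median 0.06, 30 pairs). Other pairs between groups correlated at -0.498 to 0.505 (median -0.00637, 135 pairs). Of the 21 samples, 9 matched their own number best, and whether the numbers pair samples was not tested.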
